A study of Homo sapiens with 36 samples.

Results

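Described here are 9 genes for transcription factors of the squamous lineage, TP63, TP73, SOX2, KLF4, KLF5, GRHL3, ZNF750, TFAP2A and OVOL1, chosen by name from a table of 58735 genes. All 9 were found, and all 9 passed the filter on low counts in both experiments. SOX2, GRHL3 and ZNF750 did so with few reads: SOX2 had 0 to 131 reads in a library, GRHL3 1 to 86, and ZNF750 2 to 64. SOX2 had at most 5 reads in any HN4 or HN6 library, so it passed through Cal27 alone. The other 6 genes had at least 65 reads in every library.

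Squamous epithelium is layered, with dividing basal cells below and differentiating cells above. TP63, a relative of p53, holds the basal state and opens the chromatin of epidermal genes, while KLF4, GRHL3, ZNF750 and OVOL1 act when cells leave the basal layer and build the barrier. SOX2 and TP63 lie on the long arm of chromosome 3, a stretch that squamous carcinomas often gain, and both act as lineage factors in those tumours.

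The samples were 36 RNA-seq libraries of the established human cell lines HN4, HN6 and Cal27, all from squamous carcinomas of the head and neck, in 12 groups of 3. In an IL-8 experiment each line was left untreated or was given recombinant human interleukin-8, a chemokine, at 100 ng per ml for 24 h, to ask how lines that differ in the receptor CXCR1 respond. In a plasmid experiment each line was transfected with a vector plasmid or with one carrying ACLY, the enzyme that makes cytosolic acetyl-CoA from citrate, to look downstream of ACLY. All 12 groups grew in the same medium, with serum depleted of exosomes. The labels name no clone and do not say whether the 3 libraries of a group were separate cultures. The p-values below therefore rest on differences among libraries that may be no more than technical repeats.

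Library totals ran from 16570601 to 20232735 counts. Levels are CPM, counts scaled to library size with TMM factors, given as mean ± SD (n = 3), and changes are log2 values with a standard error (SE) from edgeR. A gene is said to be called where the edgeR p, adjusted over all genes fitted, is under 0.05. Where no read was counted, a level of up to 0.148 to 0.181 CPM is allowed, depending on the library (3 counts of the total, counting error only).

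Some features of the libraries touch the results. To begin with, ACLY went against the plasmid labels in HN4: it stood at 1507 ± 9.08 CPM in the 3 libraries labelled vector and at 345 ± 28.5 CPM in the 3 labelled ACLY, beside 368 ± 7.32 CPM in untreated HN4. In HN6 it was 269.7 ± 4.14 CPM with the vector and 2208 ± 61.8 with the ACLY plasmid, and in Cal27 229 ± 13.2 and 1891 ± 32.4. Directions in the HN4 plasmid libraries are therefore given only as labelled. With IL-8, ACLY was at 1356 ± 17.0 CPM in HN4, 228 ± 3.07 in HN6 and 1173 ± 127 in Cal27.

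Further, genes read only in HN4 were also read in the treated Cal27 libraries. Over 13 protein-coding genes with at least 10 CPM in every untreated HN4 library and at most 0.3 CPM in every untreated HN6 and Cal27 library, Cal27 with IL-8 held a median share of 0.310 ± 0.0193 of the untreated HN4 level. It was 0.519 ± 0.0100 in Cal27 with the ACLY plasmid and 0 in both Cal27 control groups and in all 4 HN6 groups. GTSF1, the largest of them, was at 83.3 CPM in untreated HN4, and treated Cal27 held 25.6 (IL-8) and 44.2 CPM (ACLY plasmid). For 24 genes limited to Cal27 by the same rule, the median share of their untreated Cal27 level was 0.628 ± 0.0361 with IL-8 and 0.379 ± 0.0234 with the plasmid. The part of these values in the Cal27 changes below was not tested.

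Lastly, 2 libraries stood apart in their share of mitochondrial reads. It was 1.06% in Cal27 IL-8 replicate 3 against 3.37% and 3.59% in the other two, and 2.15% in the HN4 library labelled ACLY replicate 3 against 5.71% and 6.04%. Counts over all genes also set these 2 apart from their groups. The chi-square per degree of freedom was 92.0 and 94.3 in pairs with the Cal27 library, and 2.06 in the other pair. With the HN4 library it was 32.7 and 36.6, and 3.13 in the other pair. For the 9 genes, changes in Cal27 with IL-8 and differences between the HN4 plasmid labels are given with and without the library concerned. SOX2 in HN4, which had at most 2 reads in a library, is the exception.

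Markers bore out an epithelial identity in all 3 lines. KRT5, EPCAM, CDH1 and DSP were read in every library, and 7 or 8 of 8 squamous markers reached 1 CPM, with a summed level from 1055 to 7469 CPM. KRT14, a defining basal keratin, was at 1012 CPM in untreated Cal27, 0.694 CPM in untreated HN6 and 0 in untreated HN4. Of 8 fibroblast markers 2 or 3 reached 1 CPM, with a summed level of 5.60 to 60.5 CPM, and 5 leukocyte markers summed to at most 1.44 CPM. Of 3 endothelial markers 1 or 2 reached 1 CPM.

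The sums of fibroblast and endothelial markers moved with the treatments, in opposite directions in HN6 and Cal27. In HN6 the fibroblast sum was 53.2 to 60.5 CPM with the ACLY plasmid and 17.7 to 21.9 with the vector, and 28.9 to 30.7 with IL-8 against 16.1 to 17.2 untreated. COL1A1 made 44.9 CPM of it with the plasmid and 14.9 with the vector, PDGFRB 6.23 and 2.77, and LUM 5.11 and 2.54, while DCN was at 0 and COL1A2 and PDGFRA had means of at most 0.0183 CPM in both. In Cal27 the fibroblast sum was 8.14 to 10.0 CPM with the ACLY plasmid and 31.8 to 34.1 with the vector, and 15.6 to 21.7 with IL-8 against 28.4 to 30.7 untreated. The endothelial sum was 19.7 to 22.1 CPM with the plasmid and 9.81 to 11.8 with the vector in HN6, and 11.8 to 13.2 and 28.6 to 29.8 in Cal27. In Cal27 with IL-8 it was 14.9 to 19.2 CPM against 28.1 to 29.3 untreated. CDH5 made most of it, at 22.9 CPM in Cal27 with the vector and 11.5 with the plasmid. The squamous sum in Cal27 was also lower in treated libraries, at 3830 to 3946 CPM with the plasmid against 6773 to 7469 with the vector, and at 5036 to 5909 CPM with IL-8 against 6713 to 7366 untreated. KRT5 made the largest part, at 1682 CPM with the plasmid and 3324 with the vector. EPCAM was higher instead, at 368 against 233 CPM with the plasmid and 358 against 233 with IL-8. KRT17 was higher with IL-8 only, at 635 against 478 CPM, and the remaining squamous markers were lower with both. The part of these markers in the HN6 and Cal27 results was not tested.

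The promoters of 4 of the 6 genes called lower in Cal27 under both treatments, with all libraries in the fit, are shown. They are the 250 bases before the RefSeq start on GRCh38.p14, 5′ to 3′ on the gene's own strand. The IL-8 calls of TP73, SOX2 and KLF4 were lost under some alternatives, as given below. RefSeq promoters were matched for 7 of the 9 genes, and TP63, TP73, SOX2 and KLF5 are printed at the start nearest to the deposited gene start. Of the other two that fell, ZNF750 was not matched, and KLF4 is not printed because its RefSeq start lies 713 bases inside the deposited gene. The 4 windows lie at chr3:189631139-189631388, chr1:3652266-3652515, chr3:181711675-181711924 and chr13:73054726-73054975, all on the plus strand. Capitals mark matches, on either strand, to letters bound by the families to which these factors belong.
TP63: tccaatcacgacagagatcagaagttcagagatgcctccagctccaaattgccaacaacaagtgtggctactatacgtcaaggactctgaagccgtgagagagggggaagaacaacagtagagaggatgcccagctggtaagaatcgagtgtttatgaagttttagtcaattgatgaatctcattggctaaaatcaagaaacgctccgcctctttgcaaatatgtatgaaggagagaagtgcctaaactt
TP73: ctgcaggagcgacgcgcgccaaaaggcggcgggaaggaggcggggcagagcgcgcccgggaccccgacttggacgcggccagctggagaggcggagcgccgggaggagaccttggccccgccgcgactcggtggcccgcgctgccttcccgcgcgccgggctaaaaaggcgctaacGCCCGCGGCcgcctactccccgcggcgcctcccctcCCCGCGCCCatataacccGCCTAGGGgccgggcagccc
SOX2: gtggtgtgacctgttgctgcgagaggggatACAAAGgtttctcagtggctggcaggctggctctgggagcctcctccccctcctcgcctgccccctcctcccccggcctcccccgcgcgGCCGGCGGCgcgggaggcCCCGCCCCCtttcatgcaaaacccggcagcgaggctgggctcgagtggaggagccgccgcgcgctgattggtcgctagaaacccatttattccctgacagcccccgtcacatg
KLF5: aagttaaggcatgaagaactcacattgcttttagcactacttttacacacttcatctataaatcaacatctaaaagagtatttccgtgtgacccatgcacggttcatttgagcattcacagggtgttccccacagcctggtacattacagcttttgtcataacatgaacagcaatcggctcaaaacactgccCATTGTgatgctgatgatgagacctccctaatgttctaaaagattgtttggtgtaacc

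The letters were chosen after expression values had been seen. They were CCCNCNCCC for the KLF family, found in 31.6% of 35116 RefSeq promoter windows of this length, GCCNNNGGC for AP-2 (19.8%), ACAANG for SOX proteins (30.9%), AACCNGTT for GRHL proteins (1.49%), CCGTTA for OVOL proteins (2.45%), CCNNAGGC for ZNF750 (23.5%) and a pair of p53-family half-sites (0.296%). The AP-2 and ZNF750 letters can overlap. TP63 held no match in its window, which lies at the RefSeq start 27 bases before the deposited gene start and had 44.0% G or C. Whether the TP63 reads came from that start or from one further inside the gene was not tested. TP73, with 77.2% G or C, held 1 match each to the KLF, AP-2 and ZNF750 letters, and SOX2, with 68.8%, held 1 each to the KLF, AP-2 and SOX letters. KLF5, with 40.8%, held 1 match to the SOX letters, 52 bases before its start. Matches differed at other RefSeq starts. The KLF5 start 4029 bases inside the deposited gene had 70.8% G or C, with 1 KLF match, 2 ZNF750 matches and no SOX match. TP73 starts 38152 and 45526 bases inside had 64.0% and 63.2% G or C, and the latter held only 1 KLF match. Which start gave the reads was not tested. The KLF4 window, with 69.2% G or C, held 4 matches to the KLF letters and 1 each to the AP-2 and ZNF750 letters. A match is a string of letters and not a site of binding.

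**Figure D1:**
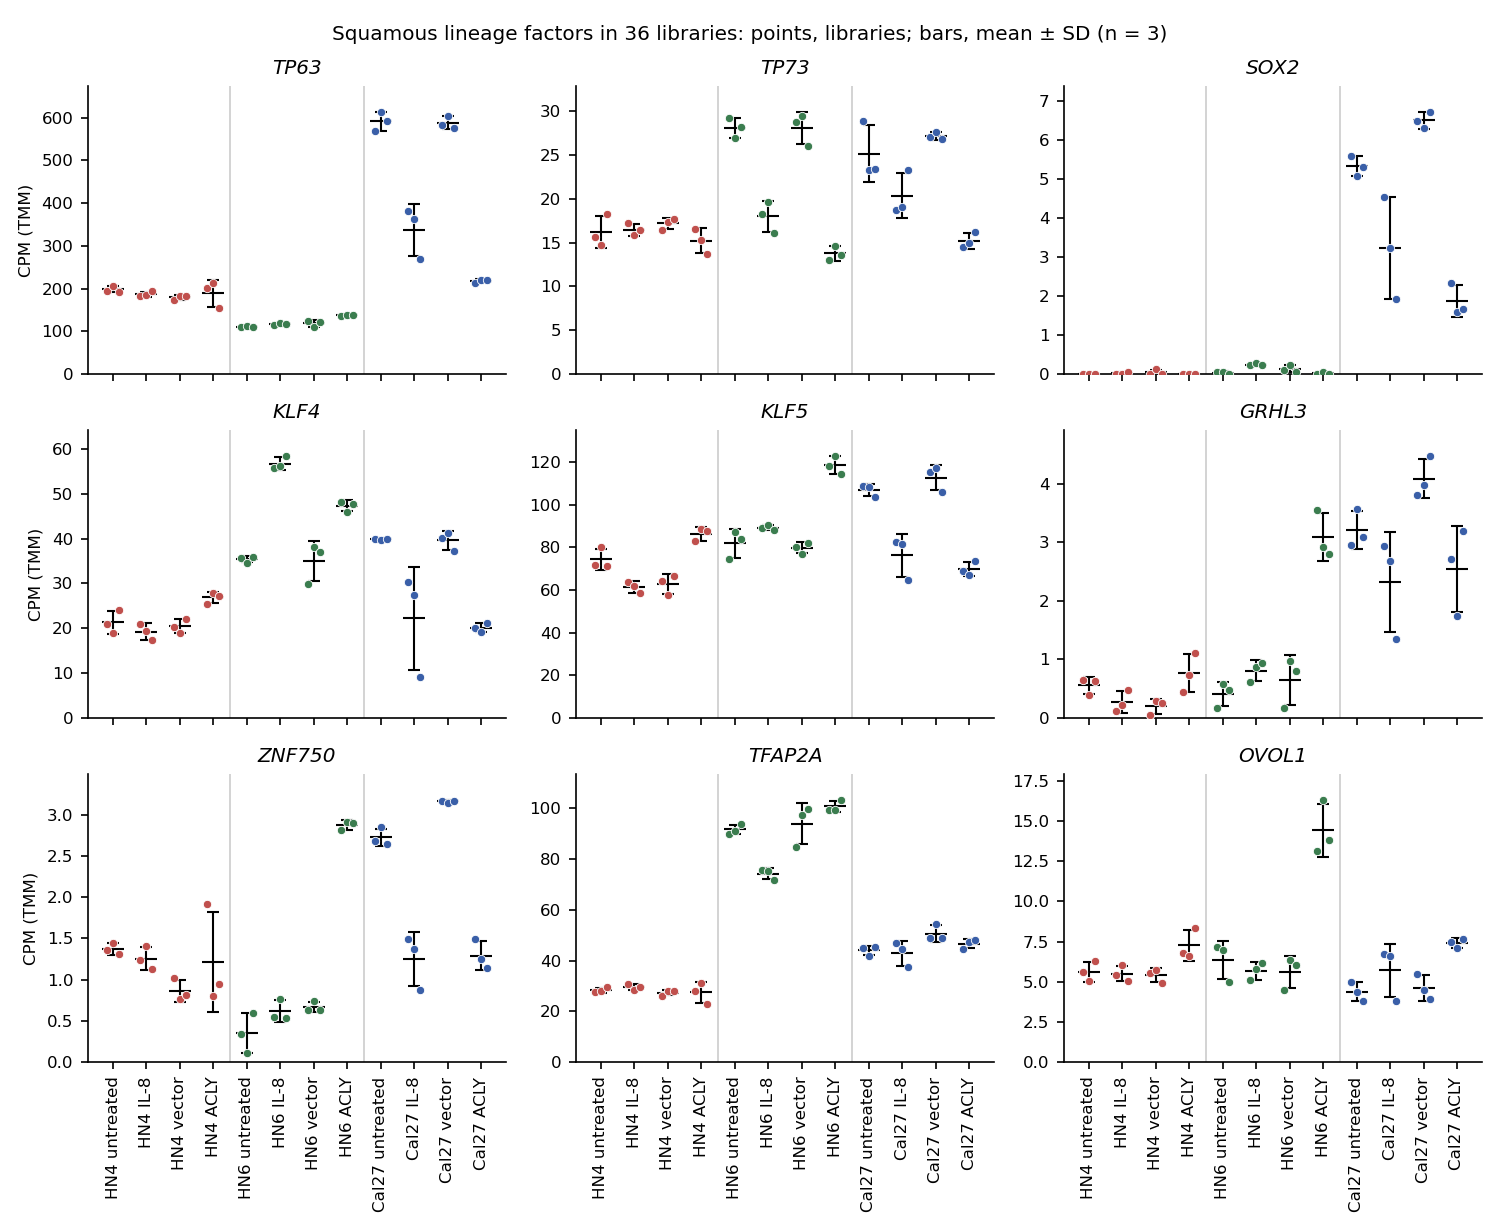
Each panel plots 1 gene as CPM with TMM factors (linear axis from 0) in the 12 groups, with a point for each of the 3 libraries and bars for the mean ± SD. Cal27 controls lie highest for TP63 and SOX2, HN6 lies highest for TFAP2A, and the HN6 libraries with the ACLY plasmid stand out for OVOL1.

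The lines differed at baseline. In untreated Cal27 against untreated HN4, 8 of the 9 genes were higher and none was lower, where 32.2% of all 18398 genes tested were called higher, 31.4% lower and 63.6% in either direction. Against untreated HN6, 5 of 9 were higher in Cal27 (35.3% of all genes) and 2 were lower (33.1%), with 68.4% of genes called in all. In HN6 against HN4, 3 were higher (32.4%) and 2 were lower (34.7%), with 67.2% called. In the vector libraries 6 of 9 were higher in Cal27 than in HN6 (36.7% of all genes) and 1 was lower (36.6%), with 73.3% called. The median log2 difference over the 9 genes was 0.91 in Cal27 against HN4, beside 0.00 over all genes. Cal27 IL-8 replicate 3 enters the shared estimate of spread. Without it, 8 were higher and 1, OVOL1, was lower in Cal27 than in HN4 (36.4% and 35.4% of all genes). Against HN6, 6 were then higher and 2 lower in Cal27 (38.6% and 36.7%).

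The responses to IL-8 differed by line. In Cal27, 6 of the 9 genes fell and none rose, where 16.7% of all genes were called lower, 22.7% higher and 39.4% in either direction. In HN4 only KLF5 was called, lower, beside 7.09% of all genes called lower, 6.89% higher and 14% in all. In HN6, TP73 and TFAP2A were called lower, beside 7.81% called lower, 7.61% higher and 15.4% in all. The median log2 change over the 9 genes was -0.51 in Cal27, -0.11 in HN4 and 0.12 in HN6, beside 0.00, -0.01 and 0.00 over all genes. The calls changed without Cal27 IL-8 replicate 3. In Cal27, 5 genes then fell and 1 rose (18.1% of all genes lower, 23.6% higher): SOX2 was no longer called, and OVOL1 was called higher. In HN4, 2 fell (13.9% lower, 16.4% higher), and in HN6 2 fell and 2 rose (17.6% lower, 15.1% higher). The calls over all genes went from 2572 to 5738 in HN4 and from 2837 to 6194 in HN6.

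With the ACLY plasmid 5 of the 9 genes, TP63, KLF4, KLF5, GRHL3 and ZNF750, rose in HN6 and fell in Cal27. TP73 fell in both lines, OVOL1 rose in both, SOX2 fell in Cal27 and was not called in HN6, and TFAP2A was called in neither. In HN6, 6 of 9 rose (26.8% of all 18556 genes were called higher) and 1 fell (24.9%), with 51.6% of all genes called. In Cal27, 7 fell (29% were called lower) and 1 rose (34.2%), with 63.2% of all genes called. Their median log2 change was 0.45 in HN6 and -0.85 in Cal27, beside 0.04 and 0.03 over all genes. In HN4, 4 of 9 were called higher under the ACLY label than under the vector label (18.9% of all genes) and none was called lower (19.1%), with 38.1% called in all. A test of the difference between the HN6 and Cal27 responses called 7 of the 9 genes, where it called 61.9% of all genes. All 7 had the lower response in Cal27 (29.3% of all genes, against 32.6% with the higher).

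**Figure D2:**
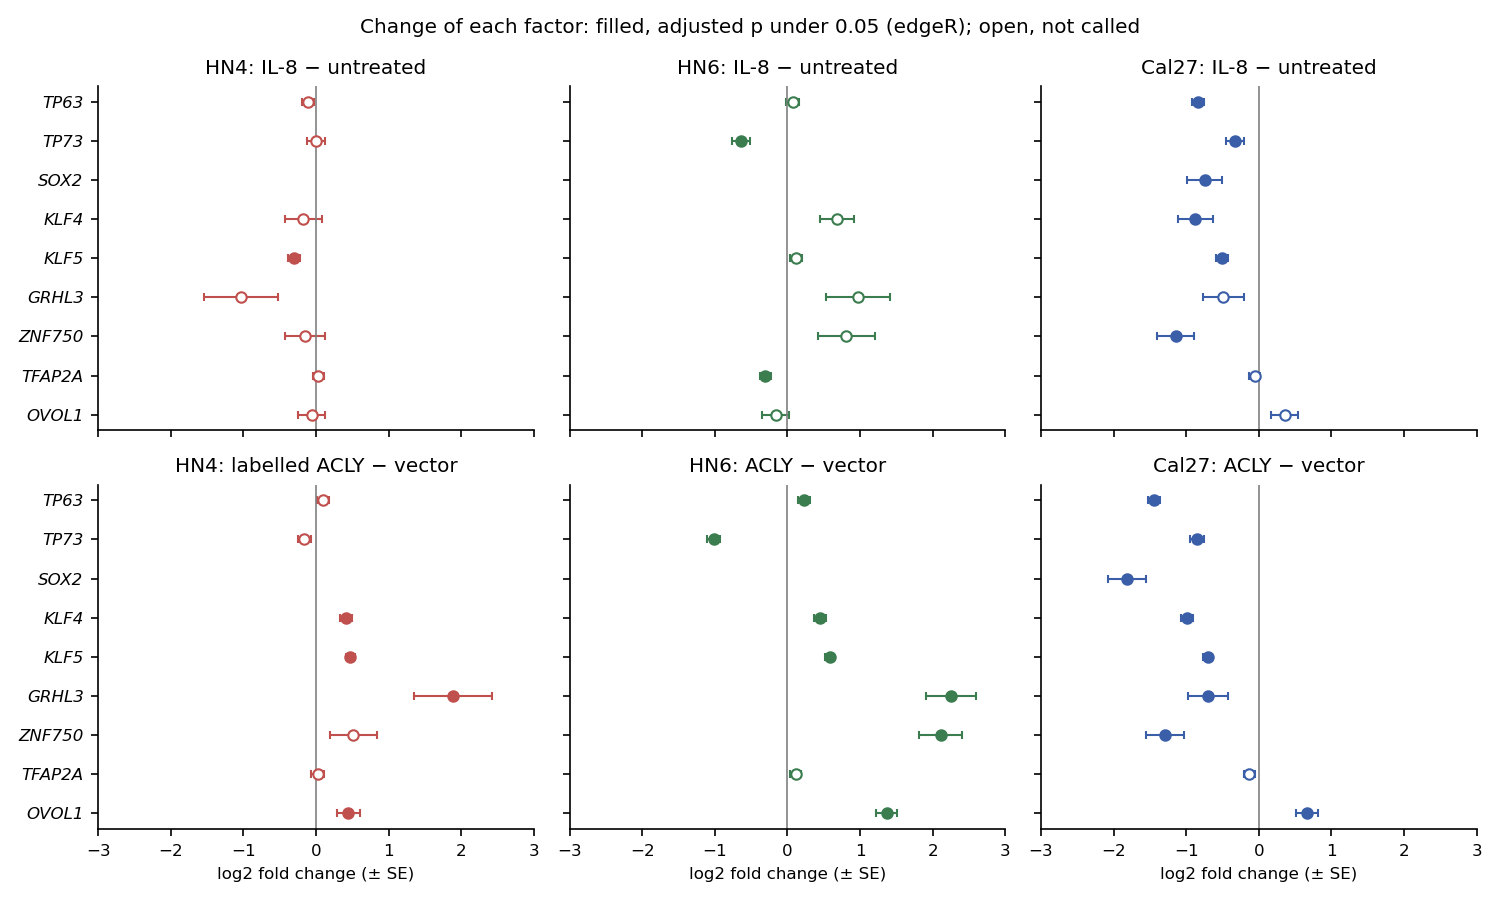
Points are the edgeR log2 fold change of each gene with its SE in the 6 treatment comparisons, filled where the adjusted p is under 0.05. SOX2 is drawn for Cal27 only, since it had too few reads in HN4 and HN6. In the Cal27 panels the called genes lie left of 0 except OVOL1 with the ACLY plasmid, and in the HN6 panel for the ACLY plasmid they lie right of 0 except TP73.

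TP63 (ENSG00000073282, chromosome 3, 189631416 to 189897279, plus strand, hg38) encodes the p53 relative that specifies stratified epithelium. Gene counts cannot tell its isoforms apart. It stood at 569, 612 and 592 CPM in untreated Cal27, 195, 206 and 192 in HN4, and 110, 112 and 111 in HN6. The 3 lines did not overlap. TP63 was higher in Cal27 than in HN4 by a log2 difference of 1.58 (SE 0.0865, edgeR adjusted p = 2.21e-11) and than in HN6 by 2.47 (SE 0.0894, edgeR adjusted p = 9.12e-14), and lower in HN6 than in HN4 by -0.88 (edgeR adjusted p = 5.56e-08). In the vector libraries, which the untreated comparison did not use, TP63 was at 588 ± 14.7 CPM in Cal27 and 119 ± 8.24 in HN6, a log2 difference of 2.34 (edgeR adjusted p = 6.14e-16).

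TP63 fell in Cal27 under both treatments. With IL-8 it was at 382, 362 and 269 CPM, all below the 3 untreated libraries, the lowest being the replicate with few mitochondrial reads. The log2 change was -0.83 (SE 0.0849, edgeR adjusted p = 7.68e-07), and -0.71 (edgeR adjusted p = 4.19e-15) without that library. Cal27 given the ACLY plasmid held TP63 at 214, 219 and 220 CPM against 583, 605 and 577 with the vector, a log2 change of -1.45 (SE 0.0813, edgeR adjusted p = 2.58e-12). These are bulk samples, in which fewer cells of a type and less RNA per cell cannot be told apart. The mean TP63 level in untreated HN4, 198 CPM, lay below both treated Cal27 groups.

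In HN6, TP63 was at 136, 138 and 139 CPM with the ACLY plasmid and at 125, 109 and 122 with the vector. The groups did not overlap, and the rise was small, with a log2 change of 0.23 (SE 0.0833, edgeR adjusted p = 0.0268). The call was lost without HN6 vector replicate 2, the lowest library (0.16, edgeR adjusted p = 0.132), and without ACLY replicate 1, 2 or 3 of HN6 (edgeR adjusted p = 0.0524, 0.0636 and 0.0649). With IL-8, TP63 was at 117 ± 2.64 CPM in HN6 and 187 ± 6.03 in HN4, neither of them called (log2 changes of 0.07 and -0.11, edgeR adjusted p = 0.64 and 0.437). Without Cal27 IL-8 replicate 3 the HN4 value of -0.11 was called (edgeR adjusted p = 0.0483). In HN4 the libraries labelled ACLY held 202, 212 and 153 CPM and those labelled vector 173, 182 and 183, which overlapped (0.09, edgeR adjusted p = 0.394). Without the replicate 3 at 153 CPM the log2 difference was 0.22 (edgeR adjusted p = 2.09e-04).

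TP73 (ENSG00000078900, chromosome 1, 3652520 to 3736201, plus strand), the other p53 relative, is best known for roles in ciliated cells and neurons and is also read in squamous tumours. Untreated HN4 held 16.2 ± 1.82 CPM, HN6 28.1 ± 1.16 and Cal27 25.2 ± 3.23. HN6 and Cal27 overlapped (log2 difference -0.11, edgeR adjusted p = 0.427), and both were higher than HN4, by 0.75 (edgeR adjusted p = 2.98e-05) and 0.64 (edgeR adjusted p = 1.65e-04).

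TP73 fell in HN6 and Cal27 under both treatments. In HN6 it went from 29.2, 26.9 and 28.2 CPM to 18.3, 19.6 and 16.2 with IL-8 (log2 change -0.64, SE 0.121, edgeR adjusted p = 0.00152), with no overlap. Plasmid-treated HN6 held 13.0, 14.6 and 13.6 CPM against 28.8, 29.4 and 26.1 with the vector (-1.02, SE 0.0922, edgeR adjusted p = 1.75e-11). Of the 9 genes TP73 was the one called lower in HN6 with the plasmid. In Cal27 the plasmid libraries held 14.5, 14.9 and 16.2 CPM against 27.1, 27.7 and 26.8 (-0.85, SE 0.0907, edgeR adjusted p = 4.77e-10). The HN6 and Cal27 plasmid changes differed by 0.16 with an SE of 0.129 (edgeR adjusted p = 0.28).

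With IL-8, TP73 in Cal27 was at 18.7, 19.0 and 23.3 CPM against 28.9, 23.3 and 23.4 untreated. These groups overlapped, and the call (-0.33, edgeR adjusted p = 0.0393) was lost under 11 of 26 alternatives, with adjusted p up to 0.209. The libraries whose omission ended it were Cal27 untreated replicate 1 (-0.22), Cal27 IL-8 replicates 1 (-0.25) and 2 (-0.26), HN4 untreated replicate 1, all 3 HN4 IL-8 replicates, HN6 untreated replicate 3 and HN6 IL-8 replicate 1 (-0.32 each). Without Cal27 IL-8 replicate 3, the highest of the treated libraries, the fall was larger and was called (-0.46, edgeR adjusted p = 0.00038). In HN4, TP73 was at 16.5 ± 0.684 CPM with IL-8, 17.2 ± 0.657 labelled vector and 15.2 ± 1.43 labelled ACLY, none of them called. The log2 difference between the labels was -0.16, and -0.09 without the ACLY-labelled replicate 3. WRAP73, which shares part of the TP73 span, stood at 30 to 53 CPM, and the counting rule for shared reads was not given in the sources used here.

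SOX2 (ENSG00000181449, chromosome 3, 181711924 to 181714436, plus strand), an HMG-box factor of foregut progenitors and squamous tumours, was read mainly in Cal27. Untreated Cal27 had 104, 98 and 108 reads (5.58, 5.07 and 5.30 CPM), untreated HN6 had 1, 1 and 0, and untreated HN4 had none. Cal27 was thus at least 31.5-fold higher than HN4, taking 3 counts per library as the floor. Over pooled reads, the measure used next for HN6, the lower 95% exact counting limit against HN4 was 81.0. Against HN6 the ratio of reads per depth was 154, with a 95% exact counting interval from 42.3 to 1278. In the vector libraries Cal27 had 380 reads and HN6 had 7, a ratio of 53.8 (25.9 to 135).

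SOX2 fell in Cal27 with the ACLY plasmid, from 6.49, 6.29 and 6.71 CPM to 2.34, 1.60 and 1.65, without overlap (log2 change -1.81, SE 0.264, edgeR adjusted p = 4.26e-07). With IL-8 it was at 4.54, 3.23 and 1.93 CPM, all below the untreated libraries, with the library of few mitochondrial reads lowest (-0.74, SE 0.241, edgeR adjusted p = 0.0238). Without that library the value was -0.50 and was not called (edgeR adjusted p = 0.0799). It likewise fell short without IL-8 replicate 2 (edgeR adjusted p = 0.0519) and without untreated replicate 1, 2 or 3 of Cal27 (0.0657, 0.0542 and 0.0651).

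In HN6, SOX2 had 13 reads with IL-8 (4, 5 and 4) against 2 untreated, a ratio of 6.50 with a 95% exact counting interval from 1.47 to 59.3. The edgeR test gave adjusted p = 0.064, and 0.0195 without Cal27 IL-8 replicate 3. It had 7 reads with the vector and 1 with the ACLY plasmid, a ratio of 7.05 (0.905 to 318; edgeR adjusted p = 0.0643). That difference was called without HN6 vector replicate 3 (edgeR adjusted p = 0.0434) or ACLY replicate 2 (0.0311). HN4 had at most 2 reads in any library. SOX2-OT, a transcript on the same strand across SOX2, had group means of 1.55 CPM in untreated Cal27 and 1.27 with IL-8, and 1.86 with the vector and 0.299 with the ACLY plasmid, and how reads in both genes were counted was not given in the sources used here.

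KLF4 (ENSG00000136826, chromosome 9, 107484852 to 107490482, minus strand), a zinc-finger factor of differentiating, barrier-forming cells, was at 20.9, 18.9 and 24.1 CPM in untreated HN4. HN6 held 35.7, 34.6 and 35.9 CPM, and Cal27 40.0, 39.7 and 40.0. The 3 lines did not overlap. KLF4 was higher than in HN4 by a log2 difference of 0.69 in HN6 (edgeR adjusted p = 0.0195) and 0.91 in Cal27 (edgeR adjusted p = 0.00329). The HN6 call was lost without untreated HN4 replicate 1 (0.67, edgeR adjusted p = 0.0516) or 2 (0.61, edgeR adjusted p = 0.0714). Cal27 against HN6 was 0.22 (edgeR adjusted p = 0.418), and 0.22 with adjusted p = 0.00784 without Cal27 IL-8 replicate 3. In the vector libraries Cal27 was higher than HN6 by 0.20 with overlapping libraries (edgeR adjusted p = 0.0253). That call was lost under 5 of 25 alternatives, with adjusted p up to 0.379. Among them were the fits without HN6 vector replicate 1 (0.10, edgeR adjusted p = 0.287), Cal27 vector replicate 1 (0.0632) and Cal27 vector replicate 2 (0.102).

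The KLF4 changes had opposite signs in HN6 and Cal27 under both treatments. In HN6 with IL-8 it was at 55.7, 56.2 and 58.4 CPM, far above the untreated 34.6 to 35.9. The log2 change of 0.68 had an SE of 0.238 and missed the threshold in the fit of 18 libraries (edgeR adjusted p = 0.0621). Without Cal27 IL-8 replicate 3 the same 0.68 was called (edgeR adjusted p = 2.16e-09), as it was without Cal27 IL-8 replicate 1 or 2 (0.0345 and 0.0483) and in the 6 HN6 libraries alone (0.69, edgeR adjusted p = 2.67e-08). In HN6 with the ACLY plasmid KLF4 was at 48.2, 45.9 and 47.8 CPM against 30.0, 38.1 and 37.1 with the vector, without overlap (0.45, SE 0.0804, edgeR adjusted p = 1.64e-05). This call was lost under 1 of 26 alternatives (adjusted p = 0.0613).

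In Cal27 with IL-8, KLF4 was at 30.3, 27.4 and 9.06 CPM, all below the untreated 39.7 to 40.0, and the replicate with few mitochondrial reads lay far under the other two. The log2 change was -0.87 (SE 0.243, edgeR adjusted p = 0.0089) with that library and -0.51 (edgeR adjusted p = 5.81e-06) without it. In the 6 Cal27 libraries alone the value of -0.87 was not called (edgeR adjusted p = 0.148). In the ACLY plasmid libraries of Cal27 KLF4 was at 19.2 to 21.2 CPM (377, 385 and 372 reads) against 40.2, 41.4 and 37.3 with the vector (-0.99, SE 0.0844, edgeR adjusted p = 2.55e-12). In HN4, the libraries labelled ACLY held 25.5, 27.9 and 27.3 CPM against 20.2, 19.0 and 22.1 labelled vector (0.41, edgeR adjusted p = 2.73e-04), with 0.40 (edgeR adjusted p = 4.67e-04) without the ACLY-labelled replicate 3. The call between the HN4 labels was lost under 1 of 26 alternatives (adjusted p = 0.132). KLF4 in HN4 with IL-8, 19.2 ± 1.85 CPM, overlapped the untreated libraries (-0.17, edgeR adjusted p = 0.714).

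KLF5 (ENSG00000102554, chromosome 13, 73054976 to 73077542, plus strand) is a relative of KLF4 found in dividing basal cells. Untreated Cal27 held 109, 108 and 103 CPM, above HN6 at 74.4, 87.2 and 83.9 and HN4 at 71.8, 80.0 and 71.1. Cal27 was higher than HN6 by a log2 difference of 0.44 (edgeR adjusted p = 1.46e-04) and than HN4 by 0.53 (edgeR adjusted p = 2.12e-05), while HN6 and HN4 overlapped (0.09, edgeR adjusted p = 0.336). The vector libraries gave 0.52 for Cal27 against HN6 (edgeR adjusted p = 1.31e-09).

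In Cal27 KLF5 fell with IL-8 to 82.4, 81.4 and 64.7 CPM (-0.51, SE 0.0826, edgeR adjusted p = 1.27e-04). The value was -0.43 (edgeR adjusted p = 7.71e-07) without the library at 64.7. The ACLY plasmid libraries held 68.8, 67.0 and 73.6 CPM against 115, 117 and 106 (-0.70, SE 0.0600, edgeR adjusted p = 2.56e-12). Neither treated group overlapped its control. In HN6 the direction was the other way with the ACLY plasmid, at 118, 123 and 114 CPM against 80.3, 76.9 and 82.1 (0.58, SE 0.0598, edgeR adjusted p = 3.03e-10).

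In HN4 with IL-8, KLF5 was at 63.8, 61.9 and 58.3 CPM, below the untreated 71.1 to 80.0 (-0.30, SE 0.0832, edgeR adjusted p = 0.0213). That call was lost without HN4 untreated replicate 2 (-0.25, edgeR adjusted p = 0.109), HN4 IL-8 replicate 2 (-0.31, 0.0675) or HN4 IL-8 replicate 3 (-0.27, 0.103). The HN4 libraries labelled ACLY held 82.7, 88.4 and 87.4 CPM against 64.4, 57.7 and 66.5 labelled vector (0.47, SE 0.0612, edgeR adjusted p = 1.36e-07), and the difference was 0.46 (edgeR adjusted p = 3.53e-08) without the ACLY-labelled replicate 3. KLF5 in HN6 with IL-8 was at 89.2 ± 0.985 CPM and was not called (0.12, edgeR adjusted p = 0.353).

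GRHL3 (ENSG00000158055, chromosome 1, 24319322 to 24364482, plus strand), a grainyhead factor of barrier formation and wound closure, was low in HN4 and HN6. Untreated libraries held 0.654, 0.390 and 0.626 CPM in HN4, 0.171, 0.574 and 0.480 in HN6 and 2.95, 3.57 and 3.09 in Cal27. Cal27 was higher than HN4 by a log2 difference of 2.51 (SE 0.342, edgeR adjusted p = 4.34e-06) and than HN6 by 3.01 (SE 0.367, edgeR adjusted p = 9.95e-07). The vector libraries gave 2.67 against HN6 (edgeR adjusted p = 1.22e-08).

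GRHL3 rose in HN6 with the ACLY plasmid to 3.56, 2.92 and 2.80 CPM (62, 53 and 55 reads), against 0.173, 0.970 and 0.801 with the vector (3, 17 and 14 reads). The groups were far apart, with a log2 change of 2.25 (SE 0.349, edgeR adjusted p = 1.36e-06), and the HN6 levels overlapped those of untreated Cal27. In Cal27 GRHL3 was at 2.71, 1.75 and 3.19 CPM against 3.81, 3.98 and 4.47 (-0.70, SE 0.272, edgeR adjusted p = 0.0247). The Cal27 call was lost without vector replicate 3 (-0.63, edgeR adjusted p = 0.0821) or ACLY replicate 2 (-0.48, edgeR adjusted p = 0.169). In HN4 the libraries labelled ACLY had 8, 13 and 20 reads against 1, 5 and 5 labelled vector (1.88, SE 0.542, edgeR adjusted p = 0.00578). Without the ACLY-labelled replicate 3, the highest, it was 1.52 (edgeR adjusted p = 0.0401).

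GRHL3 was not called with IL-8 in any line, and the values moved with single libraries. In Cal27 it was at 2.93, 2.68 and 1.34 CPM with IL-8, and the log2 change was -0.49 with all libraries and -0.23 without the replicate 3 at 1.34 CPM (edgeR adjusted p = 0.505). In HN4 it was -1.03, and -0.70 to -1.65 with single libraries left out, the last without IL-8 replicate 3. In HN6 it was 0.97, and 0.60 to 1.30 with single libraries left out, the lowest without untreated replicate 1. STPG1, on the opposite strand over the end of GRHL3, had group means of 14.3 to 28.9 CPM, far above GRHL3, and whether the counting used strand was not given in the sources used here. It was at 21.4 CPM in HN6 with the plasmid and 28.9 with the vector, and at 14.97 and 25.0 in Cal27. AL138902.1, on the opposite strand over the start of GRHL3, was at 0.126 CPM in HN6 with the plasmid and 0.0384 with the vector, and at 0.259 and 0.683 in Cal27. The part of reads from these genes in the GRHL3 counts was not tested.

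ZNF750 (ENSG00000141579, chromosome 17, 82829435 to 82840578, minus strand), a zinc-finger factor that TP63 turns on in terminal differentiation, rose in HN6 and fell in Cal27 with the ACLY plasmid, as GRHL3 did. It was at 1.36, 1.45 and 1.31 CPM in untreated HN4. HN6 held 0.343, 0.115 and 0.600 CPM, and Cal27 2.68, 2.85 and 2.65. The 3 lines did not overlap. Cal27 was higher than HN4 by 0.99 (edgeR adjusted p = 0.00189) and than HN6 by 2.99 (edgeR adjusted p = 1.41e-07), and HN6 was lower than HN4 (edgeR adjusted p = 5.34e-05).

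ZNF750 rose in HN6 with the ACLY plasmid from 0.633, 0.742 and 0.629 CPM to 2.81, 2.92 and 2.90 (11, 13 and 11 reads against 49, 53 and 57), a log2 change of 2.11 (SE 0.299, edgeR adjusted p = 2.65e-07). In Cal27 it fell from 3.17, 3.15 and 3.17 CPM to 1.49, 1.25 and 1.14 (-1.30, SE 0.261, edgeR adjusted p = 5.67e-05). The direction thus turned between the lines, and the 2 changes differed by -3.41 (SE 0.397, edgeR adjusted p = 3.43e-09). With IL-8 it fell in Cal27 to 1.49, 1.37 and 0.877 CPM (-1.15, SE 0.251, edgeR adjusted p = 0.00175), and to -0.97 (edgeR adjusted p = 0.00557) without the library at 0.877. It was not called in HN4 with IL-8 (-0.15, edgeR adjusted p = 0.784) or in HN6 with IL-8 (0.81, edgeR adjusted p = 0.184), where the value was 0.39 without untreated replicate 2 and 1.40 without untreated replicate 3. Nor was it called between the HN4 plasmid labels (0.52, edgeR adjusted p = 0.211). There the ACLY-labelled libraries held 1.91, 0.796 and 0.942 CPM, and the difference was 0.03 without replicate 1, the high library, and 0.67 without replicate 3. TBCD, on the opposite strand across ZNF750, stood at 55.0 to 135 CPM, and whether the counting used strand was not given in the sources used here. TBCD was at 129 CPM in HN6 with the plasmid and 135 with the vector, and at 76.9 and 56.0 in Cal27.

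OVOL1 (ENSG00000172818, chromosome 11, 65787022 to 65797219, plus strand), a zinc-finger repressor that restrains growth as keratinocytes leave the basal layer, was the one gene to rise in both HN6 and Cal27 with the ACLY plasmid. Untreated levels were close, at 5.62 ± 0.623 CPM in HN4, 6.35 ± 1.19 in HN6 and 4.39 ± 0.581 in Cal27. Cal27 was lower than HN6 by a log2 difference of -0.49 (edgeR adjusted p = 0.0285) with overlapping libraries. That call was lost without HN6 untreated replicate 1 (-0.40, edgeR adjusted p = 0.107) or 2 (-0.42, 0.0917) and without Cal27 untreated replicate 2 (-0.49, 0.0585) or 3 (-0.40, 0.108). It was also lost under library-size scaling (-0.37, edgeR adjusted p = 0.112), upper-quartile scaling (-0.37, 0.0867) and the filter at a mean of 5 CPM (-0.42, 0.0573). Cal27 against HN4 was not called, and was called lower without Cal27 IL-8 replicate 3 (-0.36, edgeR adjusted p = 0.0345). In HN6 the plasmid libraries held 13.1, 16.3 and 13.8 CPM against 4.49, 6.33 and 6.06 with the vector (1.37, SE 0.146, edgeR adjusted p = 7.52e-10).

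In Cal27 the plasmid libraries held 7.49, 7.08 and 7.64 CPM of OVOL1 against 5.50, 4.46 and 3.90 (0.67, SE 0.155, edgeR adjusted p = 3.58e-04). Neither line's groups overlapped, and the rise was smaller in Cal27 by 0.70 (SE 0.214, edgeR adjusted p = 0.00491). With IL-8 Cal27 held 6.69, 6.62 and 3.80 CPM, the low library being replicate 3 (0.36, edgeR adjusted p = 0.141). Without it the value was 0.56 and was called (edgeR adjusted p = 0.00608). OVOL1 in the HN4 libraries labelled ACLY, at 6.81, 6.60 and 8.37 CPM, was above the 5.55, 5.75 and 4.93 labelled vector (0.45, edgeR adjusted p = 0.022). That call was lost without the ACLY-labelled replicate 3 (0.33, edgeR adjusted p = 0.123) or the vector-labelled replicate 3 (0.38, edgeR adjusted p = 0.1). IL-8 gave -0.06 in HN4 and -0.16 in HN6, neither called (edgeR adjusted p = 0.896 and 0.609).

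TFAP2A (ENSG00000137203, chromosome 6, 10393186 to 10419659, minus strand), the AP-2 alpha factor of ectoderm and neural crest, followed the line more than the treatment. It was at 90.0, 91.1 and 93.8 CPM in untreated HN6, 44.8, 41.9 and 45.2 in Cal27 and 27.6, 28.0 and 29.4 in HN4, with no overlap. HN6 was higher than HN4 by a log2 difference of 1.65 (SE 0.0756, edgeR adjusted p = 1.95e-12), and Cal27 was lower than HN6 by -1.01 (edgeR adjusted p = 1.13e-09) and higher than HN4 by 0.64 (edgeR adjusted p = 6.62e-07). The vector libraries gave -0.87 for Cal27 against HN6 (edgeR adjusted p = 2.47e-12). TFAP2A was alone among the 9 in having its highest untreated level in HN6 without overlap with either other line.

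Of the treatments, only IL-8 in HN6 gave a TFAP2A call, with 75.7, 75.1 and 71.7 CPM (-0.31, SE 0.0726, edgeR adjusted p = 0.00799). Under library-size scaling it was -0.26 (edgeR adjusted p = 0.0569). With the ACLY plasmid it was at 101 ± 2.13 CPM in HN6 (0.11, edgeR adjusted p = 0.20) and 46.6 ± 1.79 in Cal27 (-0.13, edgeR adjusted p = 0.145). The Cal27 value was called under 5 alternatives, among them DESeq2 (-0.19, adjusted p = 0.0372) and library-size scaling (-0.22, edgeR adjusted p = 0.0156). With IL-8 in Cal27 the TFAP2A change was -0.06, and 0.01 without replicate 3. In HN4 with IL-8 it was 0.03, and between the HN4 plasmid labels 0.02, with overlapping libraries, or 0.13 (edgeR adjusted p = 0.206) without the ACLY-labelled replicate 3.

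Per length, the order of the genes changed between lines. In CPM per kilobase of gene model, TP63 led in untreated Cal27 (79.3 ± 2.88) and HN4 (26.6 ± 0.988), and KLF5 came next (27.4 ± 0.776 and 19.1 ± 1.26). In HN6, KLF5 led (21.0 ± 1.71) over TP63 (14.9 ± 0.177) and TFAP2A (11.1 ± 0.238). SOX2 was last in HN4 and HN6, and in Cal27 (2.12 ± 0.102) it stood above OVOL1 (1.14 ± 0.151), GRHL3 (0.813 ± 0.0823) and ZNF750 (0.734 ± 0.0281).

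**Figure D3:**
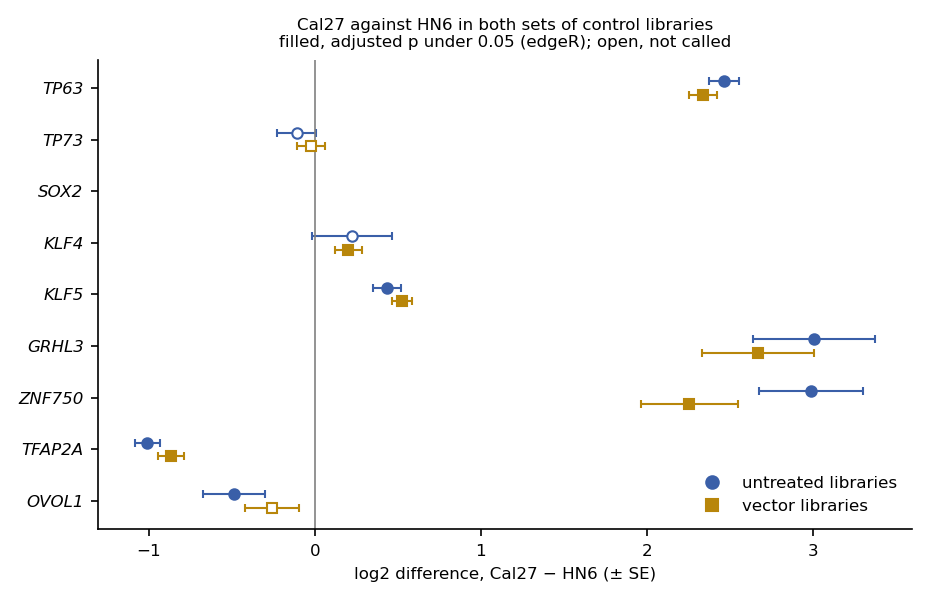
Points are the edgeR log2 difference of Cal27 from HN6 with its SE, for untreated libraries (circles) and vector libraries (squares), filled where the adjusted p is under 0.05, with SOX2 left out for its few reads in HN6. TP63 lies at 2.47 and 2.34, GRHL3 at 3.01 and 2.67, and TFAP2A on the other side of 0 in both sets at -1.01 and -0.87.

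The levels in treated Cal27 can be placed between the Cal27 control and untreated HN4. With IL-8, TP63 had gone 0.645 of the way from its Cal27 control mean to its HN4 mean, TP73 0.54, SOX2 0.392, KLF4 0.949, KLF5 0.941 and GRHL3 0.334. ZNF750, at 1.09, had passed the HN4 mean, and TFAP2A, at 0.0666, lay near its Cal27 control. Several of these rest on Cal27 IL-8 replicate 3. Without it, an alternative chosen after seeing the data, TP63 was at 0.557, TP73 at 0.706, SOX2 at 0.27, KLF4 at 0.594, KLF5 at 0.765, GRHL3 at 0.15 and ZNF750 at 0.957, and TFAP2A lay on the other side of its control, at -0.11. With the ACLY plasmid TP63 had gone 0.95 of the way, SOX2 0.713, GRHL3 0.436 and TFAP2A 0.179. TP73, at 1.09, KLF4, at 1.06, KLF5, at 1.12, and ZNF750, at 1.05, had passed the mean of untreated HN4. Against the HN4 libraries labelled vector, from the same experiment, TP73 and KLF4 were at 1.20 and 1.02, while KLF5, at 0.861, and ZNF750, at 0.814, had not passed. Against those labelled ACLY, KLF5 was at 1.62, KLF4 at 1.53 and TP73 at 1.00, while ZNF750, at 0.962, had not passed. ACLY went against these HN4 labels, and whether KLF5 had passed HN4 depends on which of them is used. Beside these stand the shares of 0.310 and 0.519 given above for genes read only in HN4. OVOL1 in Cal27 with the plasmid, 7.40 ± 0.288 CPM, lay above the untreated HN4 mean of 5.62 CPM. Genes read only in HN4 were at a median share of 0 in every HN6 group. The part of these shares in the levels of the 9 genes was not tested.

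**Figure D4:**
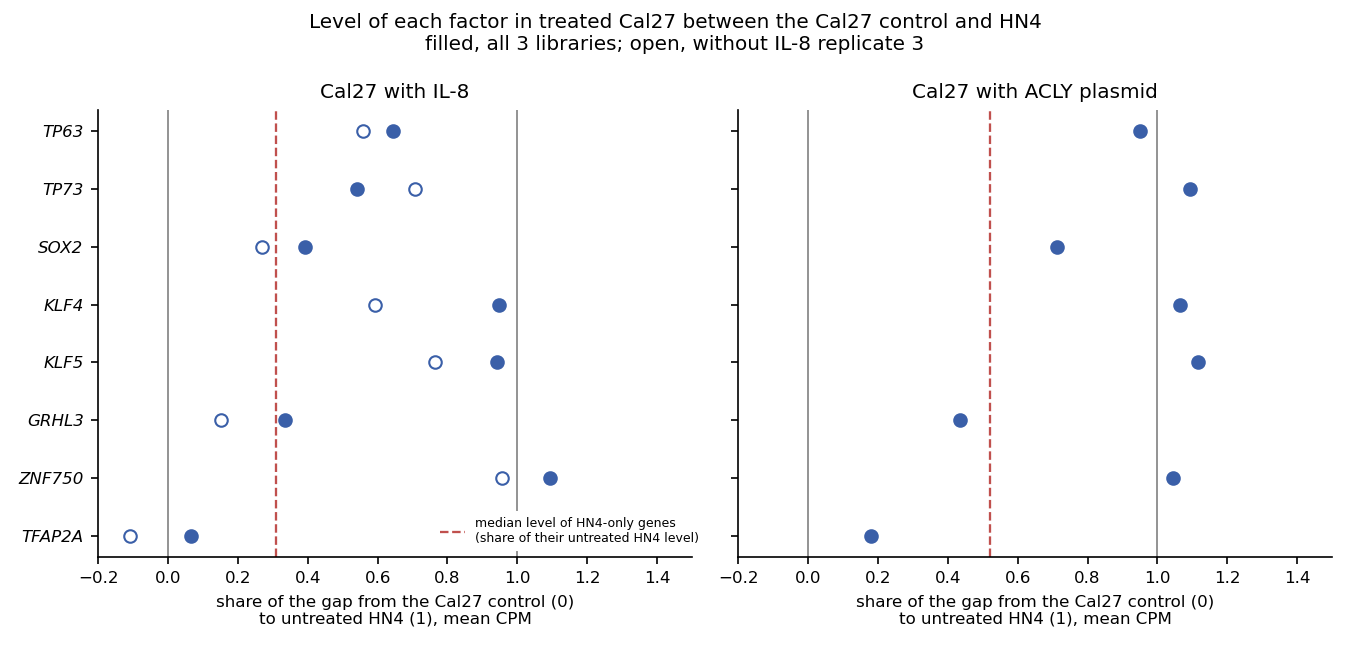
For the 8 genes called lower in untreated HN4 than in untreated Cal27, filled points give how far the mean CPM in treated Cal27 had moved from the Cal27 control (0) to untreated HN4 (1), open points give the same without Cal27 IL-8 replicate 3, and the dashed line gives the median share of genes read only in HN4. TP63 lies at 0.645 with IL-8 and 0.95 with the ACLY plasmid, and TFAP2A at 0.0666 and 0.179. The dashed lines are at 0.310 and 0.519 and use all 3 libraries of a group. Genes read only in Cal27 are not drawn, and the part of line-only genes in the points was not tested.

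Other factors of stratified epithelium, a list of 25 with 21 or 22 fitted, showed no single direction in Cal27: 8 of 22 rose and 9 fell with the ACLY plasmid (34.2% and 29% of all genes), and 3 of 21 rose and 6 fell with IL-8 (22.7% and 16.7%). The IL-8 counts were 8 and 6 without Cal27 IL-8 replicate 3 (23.6% and 18.1% of all genes). EHF, an epithelial ETS factor, fell with both, with a log2 change of -1.44 with the plasmid and -0.78 with IL-8. In HN6 with the plasmid 12 of 22 rose and 5 fell (26.8% and 24.9% of all genes), with a median log2 change of 0.46 beside 0.04 over all genes. PRDM1, which marks terminally differentiating cells, went from 2.23 ± 0.121 to 11.3 ± 0.626 CPM (2.35, edgeR adjusted p = 3.86e-15), ELF3 from 61.4 ± 0.669 to 207 ± 2.85 CPM (1.76) and GRHL1, a relative of GRHL3, from 28.4 ± 2.47 to 76.2 ± 3.08 CPM (1.44). In HN4 the libraries labelled ACLY were higher for 8 and lower for 4 (18.9% and 19.1% of all genes), with PRDM1 at 1.25 and ELF3 at 1.04.

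Basal genes, a list of 20 that holds keratins, desmosomal proteins and adhesion genes of the basal layer, fell in Cal27: 13 of 20 fell and 1 rose with IL-8 (16.7% and 22.7% of all genes), and 17 fell and 2 rose with the ACLY plasmid (29% and 34.2%). With IL-8, 15 fell and 2 rose without Cal27 IL-8 replicate 3 (18.1% and 23.6% of all genes). Their median log2 change was -0.51 and -0.94, beside 0.00 and 0.03 over all genes. FAT2, a cadherin, went from 641 ± 26.5 to 173 ± 1.59 CPM with the plasmid (-1.90, edgeR adjusted p = 1.11e-22), and DSG3, a desmosomal cadherin, from 80.6 ± 6.69 to 23.3 ± 1.46 (-1.81). In HN6 with the plasmid 8 basal genes rose and 6 fell (26.8% and 24.9% of all genes), the risers including FAT2 (0.96) and the keratin KRT15, from 32.3 ± 2.07 to 107 ± 3.16 CPM (1.75, edgeR adjusted p = 3.39e-21). Untreated, 16 of the 20 were higher and 2 lower in Cal27 than in HN4 (32.2% and 31.4% of all genes), with a median log2 difference of 1.86.

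Differentiation genes, a list of 32 with 22 fitted, gave more rises than falls in HN6 under both treatments. With the ACLY plasmid 11 rose and 2 fell there (26.8% and 24.9% of all genes), with a median of 0.50, and with IL-8 8 rose and 4 fell (7.61% and 7.81%), with a median of 0.14. CALML5, a calcium-binding protein of the upper epidermis, went from 2.69 ± 0.279 to 21.1 ± 2.37 CPM with the plasmid (2.98, edgeR adjusted p = 1.68e-15), and MAL, a membrane proteolipid, from 16.8 ± 1.51 to 41.3 ± 2.70 (1.31). In Cal27 8 rose and 11 fell with the plasmid (34.2% and 29% of all genes), with a median of -0.31, and 6 rose and 3 fell with IL-8 (22.7% and 16.7%), with a median of 0.02. The IL-8 counts were 6 and 6 (23.6% and 18.1% of all genes), with a median of -0.19, without Cal27 IL-8 replicate 3. The difference between lines was not tested for the list. SPRR1B, a cornified envelope precursor, rose in Cal27 with both (1.24 and 1.29) and fell in HN6 with IL-8 (-1.15, edgeR adjusted p = 0.0192). CALML5 also rose in Cal27 with both (3.85 and 2.89), and it stood at 3.18 CPM in untreated HN4 against 0.153 in untreated Cal27. In HN4 with IL-8 1 differentiation gene rose and 2 fell (6.89% and 7.09% of all genes).

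Across the 12 group means, log2 levels of TP63 and SOX2 went together (Pearson r = 0.884), as did KLF4 and KLF5 (0.809), SOX2 and GRHL3 (0.794) and GRHL3 and ZNF750 (0.777). TP73 and OVOL1 went most against each other (-0.594). The points are 4 groups from each of 3 lines and share those lines, so they are a description. Of 11862 protein-coding genes searched the same way, those most like TP63 were CEL (0.986) and ANKMY2 (0.985), most like SOX2 were BMP2 (0.996) and BCL11A (0.995), and most like TFAP2A were S100A10 and ANXA8 (0.986 each). KLF4 was nearest to ZNF772 (0.981), KLF5 to UBE2H (0.971), GRHL3 to PPARD (0.958), ZNF750 to REPS2 (0.949), OVOL1 to STK19 (0.924) and TP73 to MDC1 (0.911).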

How the data were processed

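The authors deposited 1 table of whole-number read counts per gene, not normalized, for 36 libraries; per the labels' protocols, messenger RNA was caught on poly-T beads and copied from random hexamers. The submitters' processing notes list hg38 as the build and name CASAVA, HISAT2 (2.0.5), featureCounts (1.5.0-p3) and also DESeq2. Whether counting used strand, which annotation release it used and how it treated multiply matched reads are not given in the sources used here. Libraries were grouped by their titles. Each experiment (18 libraries, 6 group means, 12 residual degrees of freedom) was fitted in edgeR 4.0.16 (R 4.3.3) by quasi-likelihood with TMM factors, robust dispersion and filterByExpr (minimum count 10, minimum total 15), with the 9 genes always kept. This fitted 18398 genes in the IL-8 and 18556 in the plasmid experiment. All tests are two-sided; p-values were adjusted over all genes fitted (Benjamini-Hochberg), with 0.05 as threshold. The IL-8 response was compared among the 3 lines on 2 degrees of freedom. Levels are CPM with TMM factors over 36 libraries.

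The genes, the lists and the tests were chosen with earlier results of these data known. Named besides the 9 genes are ACLY, overlapping genes, up to 3 called genes of largest change per list with a mean log2 CPM of at least 1, the genes most like each member, and line-only genes. Replicates of a group differed beyond sampling noise in all 36 pairs compared, which does not show whether they were separate cultures. Each library counts once in the fits. On simulated counts for the 2 experiments edgeR was tested before use. Alternatives were DESeq2 1.42.0, scaling by library size or by the upper quartile, omitting the filter, a filter at a mean of 5 CPM, 1 fit of 36 libraries, the 6 libraries of a line, a replicate block and each library left out. Added after seeing the data were list counts without each of the 2 libraries that stood apart, and positions between Cal27 and HN4 without Cal27 IL-8 replicate 3. Correlations used log2(CPM + 0.5). Levels of 9 genes were also computed without TMM factors.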

Additional observations from a re-analysis of the deposited data

Results flagged for a closer look

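The IL-8 response was tested for a difference among the 3 lines, and 8 of the 9 genes passed, where 40.2% of all genes did. The edgeR adjusted p was 3.24e-05 for TP63, 0.00114 for KLF5, 0.00516 for KLF4 and 0.00731 for ZNF750. It was 0.0177 for SOX2, 0.0208 for TP73, 0.0353 for TFAP2A and 0.0414 for GRHL3, and 0.223 for OVOL1, which did not pass. SOX2 passed the filter on low counts through Cal27 alone, with 0 or 1 reads in each HN4 library and 0 to 5 in each HN6 library. Its result in this test therefore says little about the responses of HN4 and HN6. TP63, SOX2, KLF4, KLF5, GRHL3 and ZNF750 had a log2 change under 0 in Cal27 and over 0 in HN6, but none of these 6 was called in HN6 (adjusted p of 0.0621 to 0.64). GRHL3 was not called in any single line and TFAP2A was called in HN6 alone. The GRHL3 call was lost under 12 of 25 alternatives, the replicate block among them (adjusted p = 0.0561), the TFAP2A call under 14 (up to 0.282) and the TP73 call under 3 (up to 0.0599). The libraries whose omission ended these calls are grouped in the part on processing. Without Cal27 IL-8 replicate 3 all 9 genes passed, OVOL1 with adjusted p = 0.0128.

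The response to the ACLY plasmid was tested for a difference between HN6 and Cal27, and 7 of the 9 genes passed, where 61.9% of all genes did. The edgeR adjusted p was 2.75e-15 for KLF5 (log2 difference Cal27 minus HN6 of -1.29), 6.67e-13 for KLF4 (-1.43), 7.17e-11 for TP63 (-1.68) and 3.43e-09 for ZNF750 (-3.41). It was 5.61e-07 for GRHL3 (-2.95), 0.00491 for OVOL1 (-0.70) and 0.047 for TFAP2A (-0.24). TP63, KLF4, KLF5, GRHL3 and ZNF750 rose in HN6 and fell in Cal27, and OVOL1 rose in both. TFAP2A was called in neither line, and its difference was lost under 15 of 25 alternatives, with adjusted p up to 0.184. TP73 (0.16, adjusted p = 0.28) and SOX2 (0.67, adjusted p = 0.564) did not pass. Treated Cal27 libraries held genes otherwise read only in HN4, at the shares given in the report, and the part of this in either difference was not tested.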

How the results depend on the processing

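Of 70 called results of the 9 genes, 53 were called under every alternative that was run and 0 changed sign; of 38 that were not called, 12 were called under some alternative. The number of the 9 genes called changed with the setting as follows. For IL-8 in HN4 (1 gene) it was 0 with no filter and 2 in the 6 libraries of the line, and 0 to 2 with single libraries left out. For IL-8 in HN6 (2 genes) it was 1 under library-size scaling, 4 in the 6 libraries of the line, 4 in 1 fit of 36 libraries, and 2 to 4 with single libraries left out. For IL-8 in Cal27 (6 genes) it was 3 in the 6 libraries of the line, and for the HN4 plasmid labels (4 genes) 2 in 1 fit of 36 libraries. The test of IL-8 responses among lines (8 genes) called 5 to 9 with single libraries left out, and 5 without HN6 IL-8 replicate 3. The cause of these moves was not tested.

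Correlations of deviations from the group means, between libraries of the same replicate number, ran from -0.229 to 0.207, with 1 of 18 pairs over 0.1. With 3 libraries per group this cannot exclude a pairing of the libraries. With the replicate block the calls numbered 1, 2 and 6 for IL-8 in HN4, HN6 and Cal27, and 4, 7 and 8 for the plasmid in HN4, HN6 and Cal27. It ended 1 call, GRHL3 in the IL-8 test among lines (adjusted p = 0.0561).

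Values that changed sign belonged to results that were not called. TP73 with IL-8 in HN4 was 0.00278 under DESeq2 and 0.00518 with no filter, and -0.0685 to 0.0942 with single libraries left out. TFAP2A with IL-8 in HN4 was -0.0207 under library-size scaling, -0.0311 under upper-quartile scaling and -0.0125 under the filter at 5 CPM. TP73 in Cal27 against HN6 was 0.00782 and 0.00542 untreated under library-size and upper-quartile scaling, and with the vector 0.0992, 0.0975 and, under the filter at 5 CPM, 0.0813, with a range of -0.0778 to 0.000105 with single libraries left out. The TP73 plasmid difference between lines was -0.0506 under upper-quartile scaling and -0.0128 under the filter. TFAP2A between the HN4 plasmid labels was -0.00403 with no filter and -0.0860 to 0.131 with single libraries left out. With single libraries left out, OVOL1 with IL-8 in HN4 was -0.135 to 0.0291, TFAP2A with IL-8 in Cal27 -0.110 to 0.0121 and TP63 between the HN4 plasmid labels -0.00164 to 0.223.

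For the IL-8 tests among lines, GRHL3 was lost without HN4 untreated 1 or 3, HN4 IL-8 1 or 2, HN6 untreated 1 or 3, HN6 IL-8 2 or 3 or any Cal27 untreated library, TFAP2A without HN4 untreated 1 or 2, HN4 IL-8 1 or 3 or any HN6 library, and TP73 without HN4 untreated 2 or HN6 IL-8 3. The plasmid difference of TFAP2A was lost without any HN4 vector library, HN4 ACLY 1, HN6 vector 1 or 2, any HN6 ACLY library, Cal27 vector 2 or any Cal27 ACLY library.

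Calls over all genes moved most for IL-8. In the 6 libraries of the line they were 6550 in HN4 (2572 in the fit of 18), 6023 in HN6 (2837) and 2588 in Cal27 (7247). Leaving out a library of HN4 gave as few as 1401 in HN4, and one of HN6 as few as 1742 in HN6. The filter at 5 CPM gave 7761 for untreated Cal27 against HN4 (11700) and 8198 against HN6 (12583). The share of calls that were higher went under library-size scaling from 49.3% to 33.3% for IL-8 in HN4 and from 49.3% to 64.4% in HN6. Under upper-quartile scaling these were 32.3% and 63.8%, with 46.8% for IL-8 in Cal27 (57.6% in the main fit), 61.6% for the HN4 plasmid labels (49.7%), 42.1% for the plasmid in Cal27 (54.1%) and 41.5% for its difference between lines (52.7%). The median over all genes under upper-quartile scaling was 0.10 for the plasmid in HN6 and -0.11 in Cal27, and under library-size scaling 0.15 for untreated Cal27 against HN6 and -0.12 for HN6 against HN4. Without TMM factors 22 of 108 group levels moved by more than their SD, by at most 1.07 times. Stricter limits (20 and 0.1 CPM) left 4 genes read only in HN4 and 4 only in Cal27. The share of the HN4-only genes in treated Cal27 was then 0.536 with the plasmid and 0.313 with IL-8. For the Cal27-only genes it was 0.178 with the plasmid and 0.509 with IL-8 (0.379 and 0.628 under the main limits). Depth limits SOX2 in HN4 and HN6, where 0 to 5 reads were counted in a library, and GRHL3 and ZNF750 there, so differences in these were detectable only where large.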
